A study of Mus musculus with 12 samples.

Results

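The replication and mitosis genes are 43 genes that dividing cells use to copy their DNA and to separate it, chosen by symbol and divided into 18 replication genes and 25 mitosis genes. They were measured in colonic organoids, which are colon crypts grown in Matrigel as cultures rich in stem cells, by 12 one-colour Agilent arrays. All 43 were among the 24242 genes tested, through 56 probes, and 55 of these probes had a signal well above background on every one of the 12 arrays. The exception was the probe of Aurkb, on 10 arrays.

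The groups were Vdr-knockout (VDR KO) organoids given calcitriol, knockout organoids given ethanol vehicle (EtOH), wild-type organoids given calcitriol and wild-type organoids given vehicle, with 3 arrays each. Calcitriol, 1,25(OH)2D3, is the active form of vitamin D and was used at 100 nM, renewed every 48 h. Vehicle was ethanol, and all mice were C57BL/6. By the labels, mice 1 and 3 of each genotype were 2 months old and mouse 2 was 3 months old. The culture of each mouse gave 1 calcitriol and 1 vehicle array, so the 12 arrays came from 6 mice. How the Vdr allele was disrupted is not stated in the labels. The treatment lasted 72 h by the series' description and 62 h by the sample descriptions.

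Before a cell divides, the origin recognition complex and the loaders Cdc6 and Cdt1 place the Mcm2 to Mcm7 helicase on DNA in G1, and geminin (Gmnn) later blocks further loading. Most of these genes, with those for nucleotide supply (Rrm1, Rrm2, Tyms, Tk1) and the clamp Pcna, are switched on by E2F factors at the entry into S phase. Mitosis genes peak later, in G2 and M, when B-Myb and Foxm1 act with the MuvB complex at a promoter element called CHR, often beside CCAAT boxes bound by NF-Y. In the colon crypt, division is confined to the lower part, and cultures of crypt cells keep this dividing compartment going. In bulk RNA, fewer dividing cells and less RNA of these genes per cell cannot be told apart.

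The promoters of the members hold these elements unevenly, and the stretches below show the elements that set the replication and mitosis genes apart. RefSeq promoter windows of 300 bases, 250 before and 50 after the start of the gene on build GRCm38.p6, were listed for 36 of the 43 members. A CHR match, TTTGAA or its reverse complement TTCAAA, lay in 14 of 20 mitosis promoters and 1 of 16 replication promoters (Mcm2), against 20.2% of all 27025 genes with a promoter. An E2F match was counted for TTTGGCGC, TTTCCCGC, TTTCGCGC and TTTGCCGC on either strand, and it lay in 8 of 16 replication promoters and 1 of 20 mitosis promoters (Cdk1), against 2.61% of all. CCAAT or its reverse complement ATTGG lay in 17 of 20 mitosis and 9 of 16 replication promoters, against 41.1% of all. Each of the 14 mitosis promoters with a CHR match also had a CCAAT match, a combination found in 8.97% of all promoters. In the stretches below, capitals mark the E2F, CHR and CCAAT matches, and each stretch reads 5′ to 3′ on the strand of its gene.
Mcm5, chr8:75109315-75109382, plus strand: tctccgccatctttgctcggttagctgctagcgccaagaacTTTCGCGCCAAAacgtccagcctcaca
Mcm6, chr1:128359730-128359797, minus strand: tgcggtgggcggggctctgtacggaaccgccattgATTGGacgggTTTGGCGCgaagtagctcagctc
Mcm7, chr5:138172026-138172093, minus strand: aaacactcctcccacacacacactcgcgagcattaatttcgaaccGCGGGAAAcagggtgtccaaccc
Cdc6, chr11:98907968-98908035, plus strand: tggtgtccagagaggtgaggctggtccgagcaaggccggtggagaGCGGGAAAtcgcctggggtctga
Mki67, chr7:135716457-135716522, minus strand: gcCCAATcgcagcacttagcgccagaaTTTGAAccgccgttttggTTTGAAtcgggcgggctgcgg
Top2a, chr11:99024192-99024257, minus strand: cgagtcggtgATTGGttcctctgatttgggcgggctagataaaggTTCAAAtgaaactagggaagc
Cdc20, chr4:118437344-118437406, minus strand: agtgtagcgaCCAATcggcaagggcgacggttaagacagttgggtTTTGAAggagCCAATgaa
Cdk1, chr10:69352913-69352972, minus strand: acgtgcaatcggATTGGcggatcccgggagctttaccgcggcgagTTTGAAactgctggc
Mcm5 carries 2 overlapping E2F matches on opposite strands, and Mki67 carries 2 CHR matches. The CHR match nearest to the gene start begins 23 bases before it in Top2a, 18 in Cdc20 and 15 in Cdk1, and 98 in Mki67. The E2F match of Mcm6 begins 47 bases before the start, those of Cdc6 and Mcm7 138 and 165 bases before it, and the nearer match of Mcm5 149 bases before it. Cdk1 is the member with both elements, and its E2F match lies farther upstream, as shown here.
Cdk1, chr10:69353021-69353088, minus strand: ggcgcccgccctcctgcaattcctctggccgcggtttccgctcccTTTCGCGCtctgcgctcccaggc
A match is a string of letters in a window and shows no binding.

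The labels and the tissue were checked first, on a scale used for all levels below: log2 of the processed signal minus the 75th percentile of its array. Vdr averaged -0.09 ± 0.41 in knockout calcitriol, -0.00 ± 0.31 in knockout vehicle, 1.02 ± 0.19 in wild-type calcitriol and 1.60 ± 0.44 in wild-type vehicle (SD, n = 3 each), and whether its probe lies in the deleted part is not known here. S100g, which encodes the calcium-binding protein calbindin-D9k and responds to vitamin D, averaged -1.27 ± 0.13 in knockout calcitriol, -1.41 ± 0.18 in knockout vehicle, 7.10 ± 0.17 in wild-type calcitriol and -0.40 ± 0.28 in wild-type vehicle. Cyp24a1, the enzyme that breaks calcitriol down, averaged 5.97 ± 0.44 in wild-type calcitriol and had a signal well above background on 4 of the 12 arrays. All 15 colon epithelium markers and all 7 measured crypt stem markers, Lgr5 among them, cleared background on each of the 12 arrays. So did 6 of 14 immune markers, 1 of 11 fibroblast markers (Vim) and 3 of 6 endothelial markers, while Ptprc did so on 6 arrays and Lum, Pdgfra and Tek on none. The share of spots that cleared background was 72.8% for wild-type mouse 2 in vehicle, and 55.0% to 66.4% for the remaining 11 arrays. The sex labels did not match the data: the arrays of mouse number 2, which carry a female label, had Y-linked Ddx3y at 0.56 to 0.75, and the 8 arrays of numbers 1 (male label) and 3 (female label) had it at -8.18 to -6.83. Xist showed the opposite, at -7.95 to -3.66 in number 2 and 1.13 to 1.89 in the others. Sex labels were not used. The arrays lay on 3 slides, unevenly by treatment and genotype. For mice 1 and 2, the knockout vehicle arrays were on slide 1, the wild-type vehicle arrays on slide 2 and all 4 calcitriol arrays on slide 3. For mouse 3, the knockout calcitriol array was on slide 2 and the other arrays were on slide 3. Calcitriol therefore goes largely with slide 3, and values with slide as a block or on slide 3 alone are given beside the results. Those fits have no term for the mouse, and on slide 3 the vehicle arrays are of mouse 3 only. They therefore mix differences between mice into the comparisons.

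Markers of division were clearly measured in all 4 groups, and in each group mouse 1 had the lowest value of all 6 genes followed throughout. Mki67, which encodes the Ki-67 antigen of cycling cells, lay at 5.45, 5.67 and 5.77 in knockout calcitriol (mice 1, 2 and 3), 5.34, 5.58 and 5.78 in knockout vehicle, 5.06, 5.49 and 5.66 in wild-type calcitriol and 4.998, 5.62 and 5.63 in wild-type vehicle. Top2a, the topoisomerase that untangles chromosomes, lay at 3.09, 3.42 and 3.47 in knockout calcitriol, 3.10, 3.39 and 3.31 in knockout vehicle, 2.64, 3.20 and 3.35 in wild-type calcitriol and 2.72, 3.50 and 3.28 in wild-type vehicle. In both genes the 4 groups overlapped, and the 2 wild-type arrays of mouse 1 were the lowest of the 12. Ccnb1, the cyclin that activates Cdk1 at the entry into mitosis, lay at 3.28, 3.83 and 3.64 in knockout calcitriol, 3.39, 3.68 and 3.68 in knockout vehicle, 2.87, 3.52 and 3.64 in wild-type calcitriol and 2.87, 3.95 and 3.59 in wild-type vehicle. Its values spread most in wild-type vehicle, where mice 1 and 2 gave the ends of the range.

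The replication genes gave the same picture. Pcna, the sliding clamp of DNA polymerase, lay at 5.07, 5.55 and 5.50 in knockout calcitriol, 5.01, 5.62 and 5.73 in knockout vehicle, 4.82, 5.34 and 5.55 in wild-type calcitriol and 4.94, 5.55 and 5.42 in wild-type vehicle. Mcm2, a helicase subunit, lay at 1.95, 2.66 and 2.30 in knockout calcitriol, 2.15, 2.73 and 2.27 in knockout vehicle, 1.71, 2.50 and 2.65 in wild-type calcitriol and 1.75, 2.86 and 2.38 in wild-type vehicle. In neither gene did any group separate from another. Ccne1, the cyclin of the step into S phase, lay at 1.72, 2.73 and 2.05 in knockout calcitriol, 1.75, 2.77 and 2.13 in knockout vehicle, 1.65, 2.52 and 2.73 in wild-type calcitriol and 1.63, 2.95 and 2.51 in wild-type vehicle. Mouse 3 of the knockout lay closer to mouse 1 in this gene, and mouse 3 of the wild type lay closer to mouse 2.

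**Figure D1:**
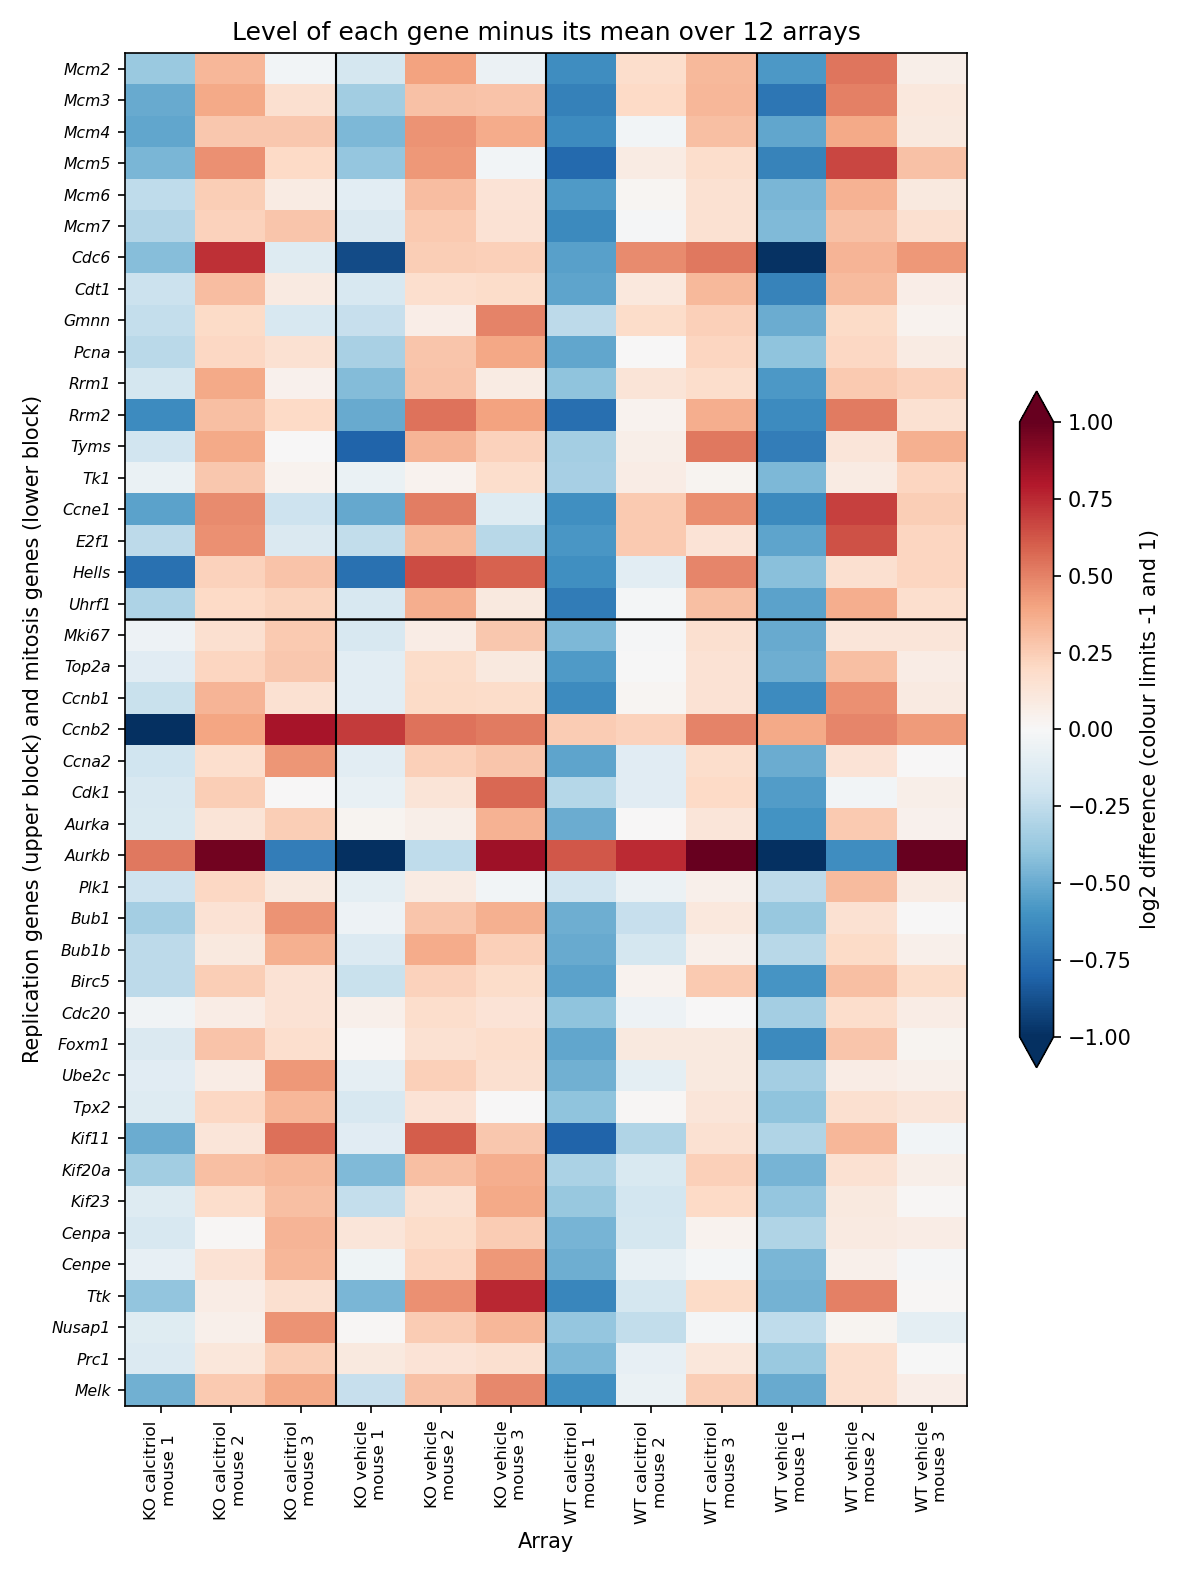
Level of each of the 43 genes on each array minus the mean of the gene over the 12 arrays, on the log2 scale, with the 18 replication genes above the line and the 25 mitosis genes below it. The columns of mouse 1 are blue in each of the 4 groups for most genes. In knockout vehicle several mitosis genes, Cenpa and Prc1 among them, lie above their mean in mouse 1. Ccnb2 on the calcitriol array of knockout mouse 1 lies far past the colour limit.

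Calcitriol against vehicle in wild-type organoids asks whether the hormone changes the division genes where its receptor is present. No replication or mitosis gene passed the test over all genes (limma, adjusted p under 0.05), where 0.161% of all genes passed, and none passed with mouse as a block, where 0.969% did. The median difference was -0.06 for the replication genes, of which 14 of 18 were below 0, and -0.07 for the mitosis genes, of which 21 of 25 were below 0, against -0.03 over all genes. Mki67 differed by -0.01 (SE 0.20) and Pcna by -0.06 (SE 0.24), with adjusted p = 1 for both. Of the 43 genes, 1 was higher and 6 were lower in all 3 mice, against 15.3% and 18.2% of all genes. The groups separated for no member, where 4.74% of all genes were higher and 4.22% lower without overlap. With mouse as a block, the 95% interval of the difference lay between -1 and 1, that is within a 2-fold change, for 41 of the 43 genes.

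The largest differences in wild-type organoids stayed within the spread of the mice. Mcm5, a helicase subunit, lay at 2.75, 3.60 and 3.70 in calcitriol and 2.85, 4.18 and 3.81 in vehicle, a difference of -0.27 (SE 0.37, limma adjusted p = 1, and 0.478 with mouse as a block). Each mouse was lower in calcitriol, and the groups overlapped almost fully. Mcm5 was the 1 member with an unadjusted p under 0.05 with the block (0.0419), in a comparison where 6.17% of all genes were that low in the same direction. Cdc6 lay at -0.98, 0.03 and 0.08 in calcitriol and -1.43, -0.10 and -0.01 in vehicle, a difference of 0.22 (SE 0.47). E2f1, the factor that switches on S phase genes, lay at 0.56, 1.40 and 1.27 in calcitriol and 0.61, 1.77 and 1.35 in vehicle, a difference of -0.17 (SE 0.32). In both genes the gap between mouse 1 and the other two mice was larger than the gap between treatments.

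Among the mitosis genes, Kif11, the motor that pushes the spindle poles apart, lay at -0.81, -0.31 and 0.15 in wild-type calcitriol and -0.31, 0.33 and -0.04 in wild-type vehicle, a difference of -0.32 (SE 0.31, limma adjusted p = 1). Mice 1 and 2 were lower in calcitriol and mouse 3 was higher. Ttk, a kinase of the spindle checkpoint, lay at -2.35, -1.87 and -1.51 in calcitriol and -2.18, -1.20 and -1.69 in vehicle, a difference of -0.22 (SE 0.35), with the same division of the mice. Aurkb had the largest difference, 1.27 (SE 0.82, limma adjusted p = 1), and is described with the dim spots below. Over the sets, the median difference of mice 1, 2 and 3 was -0.05, -0.30 and 0.16 for the replication genes and -0.03, -0.26 and 0.07 for the mitosis genes. Mouse 2, whose vehicle array had the highest share of spots above background, gave the lowest value in both sets. The median over the 43 genes, -0.06, was -0.27 if the vehicle array of mouse 1 was left out, 0.13 if its calcitriol array was, and 0.07 if the vehicle array of mouse 2 was. With slide as a block it was -0.06, and on slide 3 alone -0.22. Neither fit has a mouse term, and slide 3 holds wild-type vehicle from mouse 3 only. Without mouse 3 in both genotypes and with the mouse block, Kif11 (-0.57, limma adjusted p = 0.0183) and Aurkb (1.94, adjusted p = 0.0397) passed, where 8.62% of all genes passed. In that fit all calcitriol arrays were on slide 3 and all vehicle arrays on slides 1 and 2, so treatment and slide cannot be told apart. With all mice and slide as a block the differences were -0.06 for Kif11 and 0.01 for Aurkb. The crypt stem markers had a median difference of -0.34 here, with 6 of 7 below 0 and 1, Ascl2, called lower with mouse as a block. Their part in the values of the division genes was not tested.

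Calcitriol against vehicle in knockout organoids asks what the hormone does without its receptor. No member passed (limma, with or without mouse as a block), and 0% of all genes passed either way. An unadjusted p under 0.05 was reached by 1400 genes (5.78%), or 1939 (8%) with the block. None of those were members, of which only a few would be reached at these shares. The median difference was -0.06 for the replication genes, 11 of 18 below 0, and -0.05 for the mitosis genes, 16 of 25 below 0, against 0.04 over all genes. By mouse it was -0.04, -0.00 and -0.09 for replication and -0.10, -0.03 and 0.01 for mitosis. These values span a narrower range than those of the wild-type mice. Of the 43 genes, 1 was higher and 6 were lower in all 3 mice, against 15.9% and 12.7% of all genes, and the groups separated for no member, where 6.07% of all genes were higher and 1.4% lower without overlap. The median over the 43 genes, -0.05, was 0.13 if the calcitriol array of mouse 1 was left out, and 0.05 or 0.02 if the vehicle array of mouse 2 or of mouse 3 was. With slide as a block it was -0.12, and on slide 3 alone -0.20. Neither fit has a mouse term, and on slide 3 knockout calcitriol is from mice 1 and 2 and vehicle from mouse 3. Treatment and mouse cannot be told apart there. Without mouse 3 in both genotypes and with the mouse block, Kif11 (-0.43, limma adjusted p = 0.0415) and Aurkb (2.04, adjusted p = 0.0277) passed, where 11.5% of all genes passed. In that fit the knockout calcitriol arrays were on slide 3 and the knockout vehicle arrays on slide 1, so treatment and slide cannot be told apart. With all mice and slide as a block Aurkb differed by 0.04. The crypt stem markers had a median difference of -0.05 and the 8 immune markers tested one of 0.56, all 8 above 0, and none of either list passed. Mki67 differed by 0.06 (SE 0.20), Top2a by 0.06 (SE 0.22) and Pcna by -0.08 (SE 0.24), each with adjusted p = 1.

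Hells, a chromatin remodeller that helps to keep DNA methylated through replication, lay at -0.59, 0.38 and 0.44 in knockout calcitriol and -0.59, 0.81 and 0.74 in knockout vehicle, a difference of -0.24 (SE 0.41). Rrm2, the regulated subunit of ribonucleotide reductase, lay at 3.67, 4.60 and 4.50 in calcitriol and 3.79, 4.84 and 4.70 in vehicle, a difference of -0.19 (SE 0.39). Cdc6 lay at -0.87, 0.29 and -0.57 in calcitriol and -1.33, -0.20 and -0.20 in vehicle, a difference of 0.19 (SE 0.47). In these 3 replication genes the groups overlapped and limma gave an adjusted p of 1. Ttk lay at -2.09, -1.63 and -1.54 in knockout calcitriol and -2.16, -1.24 and -0.95 in knockout vehicle, a difference of -0.30 (SE 0.35), with mice 2 and 3 lower in calcitriol and mouse 1 slightly higher. Ccnb2 and Aurkb had the largest differences, -1.93 (SE 1.15, limma adjusted p = 0.88) and 0.85 (SE 0.82, limma adjusted p = 1), with their spots described below.

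The difference between the effects of calcitriol in the 2 genotypes, knockout minus wild type, was near 0 for both sets, at -0.01 for replication and 0.04 for mitosis, against 0.07 over all genes. No member passed (limma, 0.0289% of all genes passed, and 0.239% with mouse as a block). Mcm5 differed by 0.33 (SE 0.52, 95% interval -0.81 to 1.48), Gmnn by -0.32 (SE 0.33) and E2f1 by 0.25 (SE 0.46). Gmnn lay at 1.60, 2.03 and 1.68 in knockout calcitriol, 1.61, 1.91 and 2.34 in knockout vehicle, 1.58, 2.02 and 2.08 in wild-type calcitriol and 1.35, 2.03 and 1.87 in wild-type vehicle. The widest gap between treatments was in mouse 3 of the knockout, where vehicle was the highest of the 12 arrays. E2f1 lay at 0.88, 1.60 and 0.99 in knockout calcitriol and at 0.89, 1.46 and 0.86 in knockout vehicle, so its treatments hardly differed there. Cdk1, the kinase that starts mitosis, lay at 2.18, 2.59 and 2.34 in knockout calcitriol, 2.26, 2.47 and 2.92 in knockout vehicle, 2.05, 2.23 and 2.54 in wild-type calcitriol and 1.78, 2.31 and 2.40 in wild-type vehicle. Its effects differed by -0.29 (SE 0.30), those of Aurkb by -0.42 (SE 1.16) and Ccnb2 by -1.83 (SE 1.63). No member went one way in all 3 wild-type mice and the other way in all 3 knockout mice. With the block, the 95% interval lay between -1 and 1 for 41 of the 43 genes, Ccnb2 and Aurkb being outside.

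Knockout against wild type in vehicle asks whether division genes differ without added hormone. The mitosis genes had a median difference of 0.19, and 23 of 25 were above 0, while the replication genes had a median of 0.10, with 14 of 18 above 0. The median over all genes was -0.06. No member passed (limma, 0.00413% of all genes passed, and 0.0165% with the mouse number as a block), and the lowest adjusted p was 0.627, for Nusap1, and 0.302 with the block. With the block, 7 mitosis genes had an unadjusted p under 0.05, all higher in the knockout, where 4.28% of all genes were that low in that direction. They were Cenpe, Nusap1, Cdk1, Melk, Ccna2, Bub1 and Cenpa, named here after their values were seen. In the lower direction it was 10.6% of all genes and no member. No replication gene was among them. Counted by pairs of mice of the same number, 14 mitosis genes and 3 replication genes were higher in the knockout in all 3 pairs, against 14.4% of all genes, and no member was lower in all 3, against 26.2%.

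Cenpe, a motor that moves chromosomes to the middle of the spindle, lay at 4.05, 4.31 and 4.53 in knockout vehicle and 3.64, 4.14 and 4.08 in wild-type vehicle, a difference of 0.34 (SE 0.19, limma adjusted p = 0.628, and 0.302 with the block). Nusap1, which bundles spindle microtubules, lay at 2.50, 2.75 and 2.82 in knockout vehicle and 2.24, 2.52 and 2.40 in wild-type vehicle, a difference of 0.31 (SE 0.17). Each knockout mouse was above the wild-type mouse of its number in both genes, and the lowest knockout array lay below the highest wild-type array. Cdk1, with the levels given above, had a difference of 0.39 (SE 0.21, limma adjusted p = 0.636), which is 1.31-fold. This holds for its brightest probe, and its dimmer probes gave -0.25 and 0.07. On the brightest probe the highest array was knockout mouse 3 and the lowest was wild-type mouse 1. The groups did not overlap for 2 members, Cenpa and Ccnb2, both higher in the knockout, where 2.26% of all genes were so placed, and 5.9% were lower without overlap.

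Among the replication genes in vehicle, Gmnn differed by 0.20 (SE 0.23), Hells by 0.18 (SE 0.41) and E2f1 by -0.17 (SE 0.32), each within the spread of its groups. Hells lay at -0.59, 0.81 and 0.74 in knockout vehicle and -0.27, 0.31 and 0.37 in wild-type vehicle. Pcna differed by 0.15 (SE 0.24), Mcm2 by 0.05 (SE 0.31) and Ccne1 by -0.14 (SE 0.40), against 0.15 (SE 0.20) for Mki67, 0.09 (SE 0.22) for Top2a and 0.11 (SE 0.27) for Ccnb1. The median difference of numbers 1, 2 and 3 was 0.27, -0.04 and -0.03 for replication and 0.32, 0.06 and 0.17 for mitosis. The pair of number 1 gave the highest value in both sets, and the median over the 43 genes, 0.15, was -0.06 if wild-type mouse 1 was left out of the vehicle group. Without number 1 in both genotypes it was 0.06. With slide as a block it was 0.32, and on slide 3, which holds the vehicle arrays of number 3 alone, it was 0.15. The vehicle arrays of numbers 1 and 2 lay on a different slide in each genotype. The crypt stem markers had a median difference of 0.07, with 5 of 7 above 0.

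Knockout against wild type under calcitriol gave a median of 0.23 for the mitosis genes, 23 of 25 above 0, and 0.09 for the replication genes, 14 of 18 above 0, against 0.01 over all genes. No member passed (limma, 0.206% of all genes passed, and 1.03% with the mouse number as a block). The lowest adjusted p was 1, and 0.129 with the block, for Cenpe. With the block, 12 mitosis genes and 1 replication gene, Mcm7, had an unadjusted p under 0.05, all higher in the knockout, where 4.21% of all genes were that low in that direction. In the lower direction it was 3.54% of all genes and no member. The 12 were Bub1, Bub1b, Ccna2, Cdc20, Cenpa, Cenpe, Kif23, Mki67, Nusap1, Top2a, Tpx2 and Ube2c. Here too the fit counts the 2 arrays of a mouse as separate arrays. In all 3 same-numbered pairs, 18 mitosis genes and 3 replication genes were higher in the knockout, against 16.4% of all genes, and no member was lower, against 13.2%. With slide as a block the median over the 43 genes was 0.17. On slide 3 alone, which lacks the calcitriol array of knockout number 3, it was 0.11. The crypt stem markers were higher too, with a median of 0.34 and 6 of 7 above 0, and 2 of them, Ascl2 and Smoc2, were called higher with the block. Their part in the values of the mitosis genes was not tested. For no member did the 2 groups separate, where 3.7% of all genes were higher and 3.71% lower without overlap.

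Cenpe lay at 4.01, 4.24 and 4.43 in knockout calcitriol and 3.61, 4.02 and 4.07 in wild-type calcitriol, a difference of 0.33 (SE 0.19, and 0.08 with the block). Nusap1 lay at 2.37, 2.54 and 2.94 in knockout calcitriol and 2.10, 2.25 and 2.47 in wild-type calcitriol, a difference of 0.34 (SE 0.17). With the block its SE was 0.10 and its limma adjusted p 0.242. The lowest knockout array of each gene lay below the highest wild-type array. Kif11 lay at -0.50, 0.11 and 0.54 in knockout calcitriol and -0.81, -0.31 and 0.15 in wild-type calcitriol, a difference of 0.37 (SE 0.31, limma adjusted p = 1). Each knockout mouse was above the wild-type mouse of its number. Mki67 differed by 0.23 (SE 0.20), Top2a by 0.26 (SE 0.22) and Ccnb1 by 0.24 (SE 0.27), and each was higher in the knockout in all 3 pairs, Ccnb1 in the pair of number 3 by less than 0.01.

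The replication genes with the largest differences under calcitriol were Mcm5, Mcm7 and Uhrf1. Mcm5 lay at 3.06, 3.98 and 3.72 in knockout calcitriol and 2.75, 3.60 and 3.70 in wild-type calcitriol, a difference of 0.24 (SE 0.37). Mcm7, another helicase subunit, lay at 4.58, 5.10 and 5.15 in knockout calcitriol and 4.24, 4.86 and 5.03 in wild-type calcitriol, a difference of 0.23 (SE 0.25, limma adjusted p = 1, and 0.599 with the block). Uhrf1, which guides maintenance methylation to newly copied DNA, lay at 4.02, 4.53 and 4.55 in knockout calcitriol and 3.63, 4.31 and 4.64 in wild-type calcitriol, a difference of 0.17 (SE 0.28). Mcm5 and Mcm7 were higher in the knockout in each pair, and Uhrf1 was lower in the pair of number 3. Pcna differed by 0.13 (SE 0.24), Mcm2 by 0.02 (SE 0.31) and Ccne1 by -0.13 (SE 0.40). Without the calcitriol array of wild-type mouse 1 the median over the 43 genes was -0.01, against 0.17 with it, and without number 1 in both genotypes it was 0.14. The vehicle and calcitriol comparisons of the genotypes use the same 6 mice, so they are not independent. With 1 value for each mouse, the mean of its 2 arrays, and the number as a term, no member passed (limma, 0.227% of all genes passed) and Cenpe had the lowest adjusted p, 0.321. That last fit was chosen after the data were seen.

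**Figure D2:**
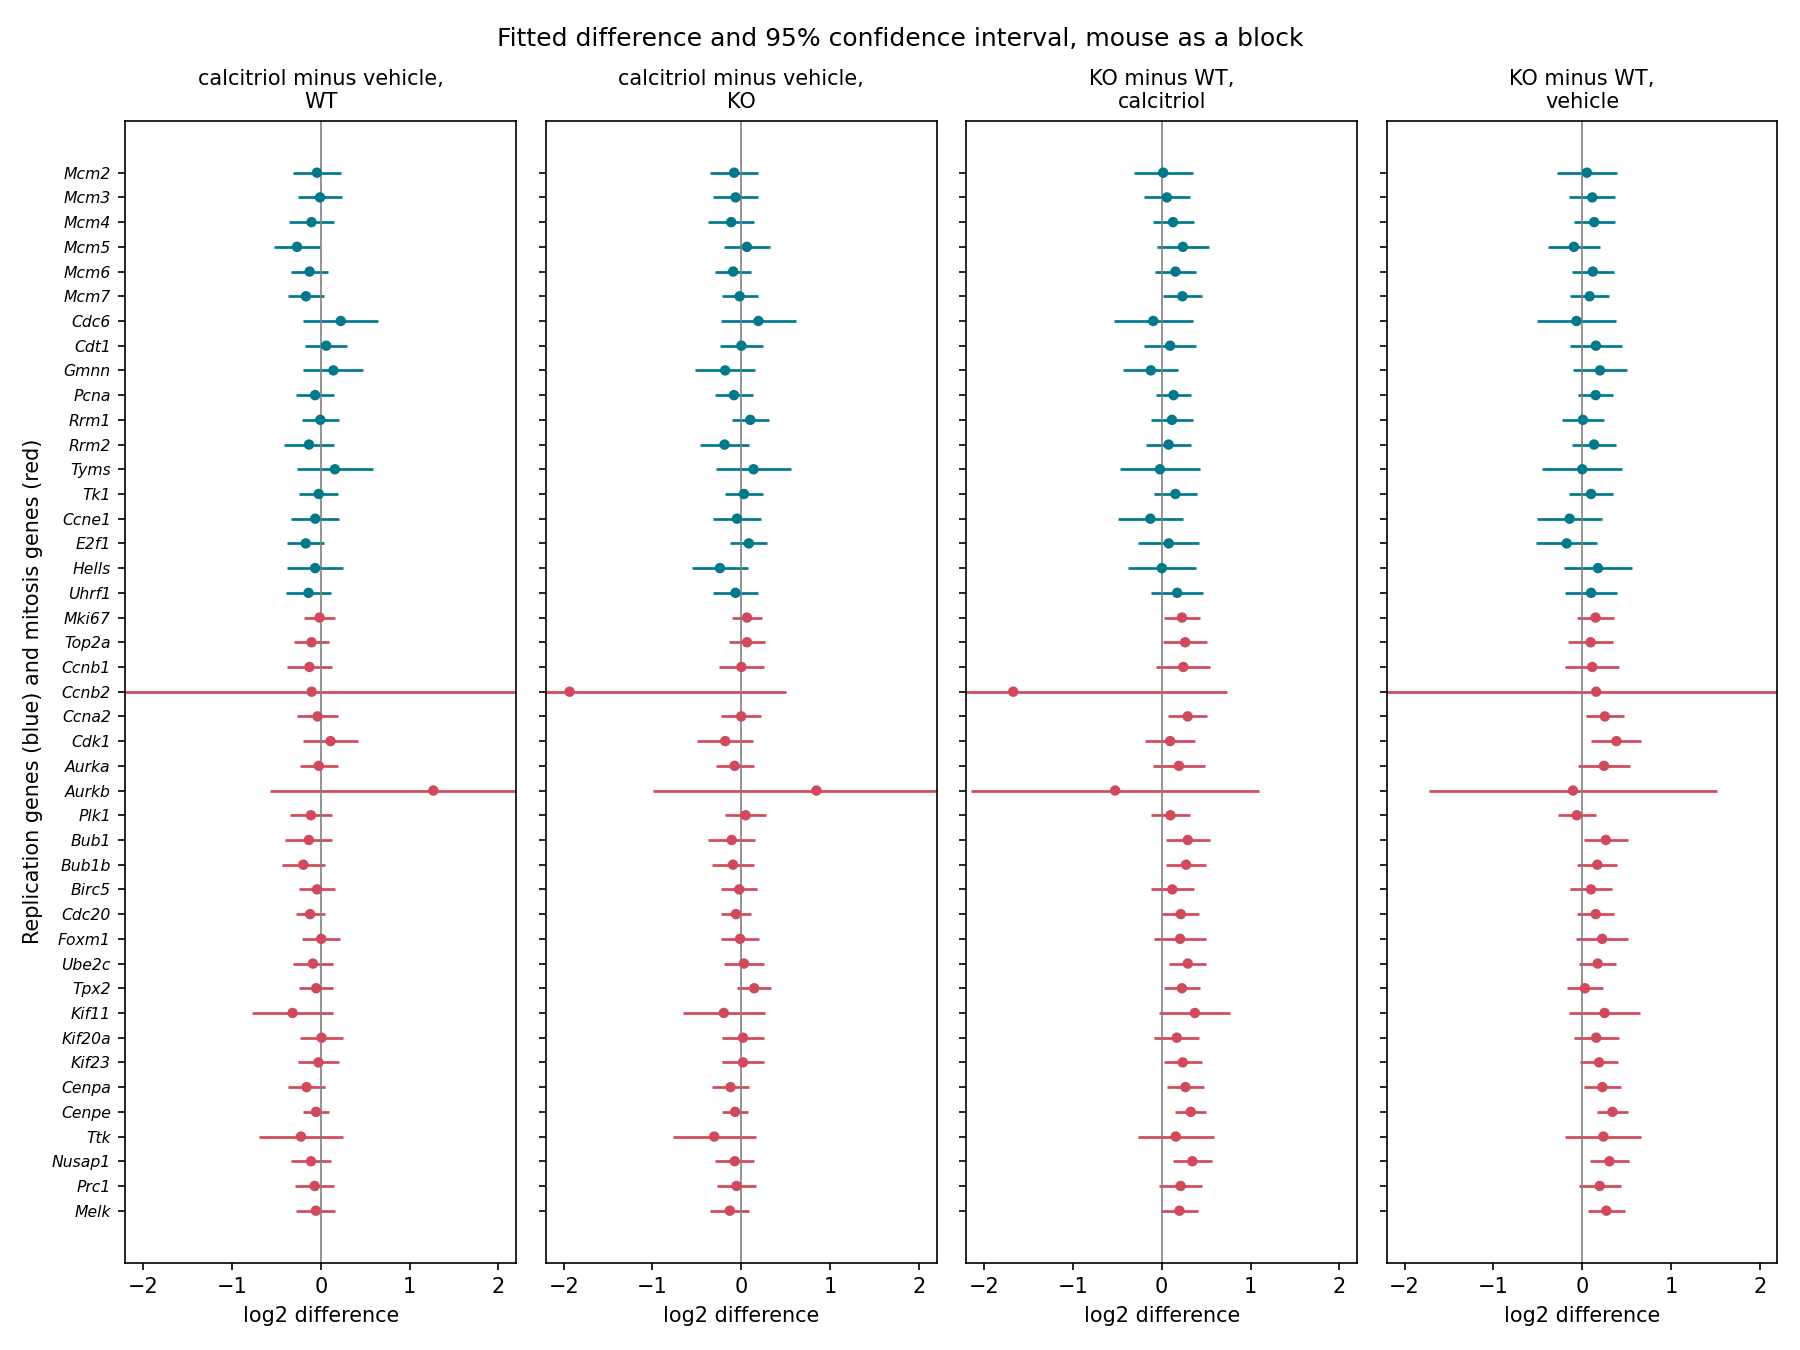
Fitted log2 difference of each member with its 95% confidence interval, from the fit with mouse (treatment) or mouse number (genotype) as a block, for calcitriol minus vehicle in wild type and in knockout and for knockout minus wild type in calcitriol and in vehicle. In the 2 genotype panels 23 of 25 mitosis genes lie right of 0, while in the treatment panels most points lie within 0.3 of 0, and the intervals of Ccnb2 and Aurkb run past the axis.

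The mouse number divided the members far more than genotype or treatment did. Mouse 1 had the lowest level in all 4 groups for 40 of the 43 genes, against 13.2% of all genes. The exceptions were E2f1, Ccnb2 and Aurkb. The share of the sum of squares over the 12 arrays that lay between mouse numbers had a median of 82.9% for the replication genes and 64.1% for the mitosis genes, against 32.2% over all genes. Genotype took 1.16% in the replication genes and 15.1% in the mitosis genes, against 6.88% over all genes, and treatment took 1.46% and 1.12%, against 5.37%. Among the replication genes the number share ran from 64.8% for Tk1 to 92.0% for Mcm3, and Rrm2 had 90.8%. Among the mitosis genes it ran from 19.1% for Ccnb2 to 86.5% for Birc5, the survivin gene. Nusap1 was the 1 member with a larger share for genotype (46.8%) than for number (37.3%), and Cenpe had 40.4% for genotype.

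**Figure D3:**
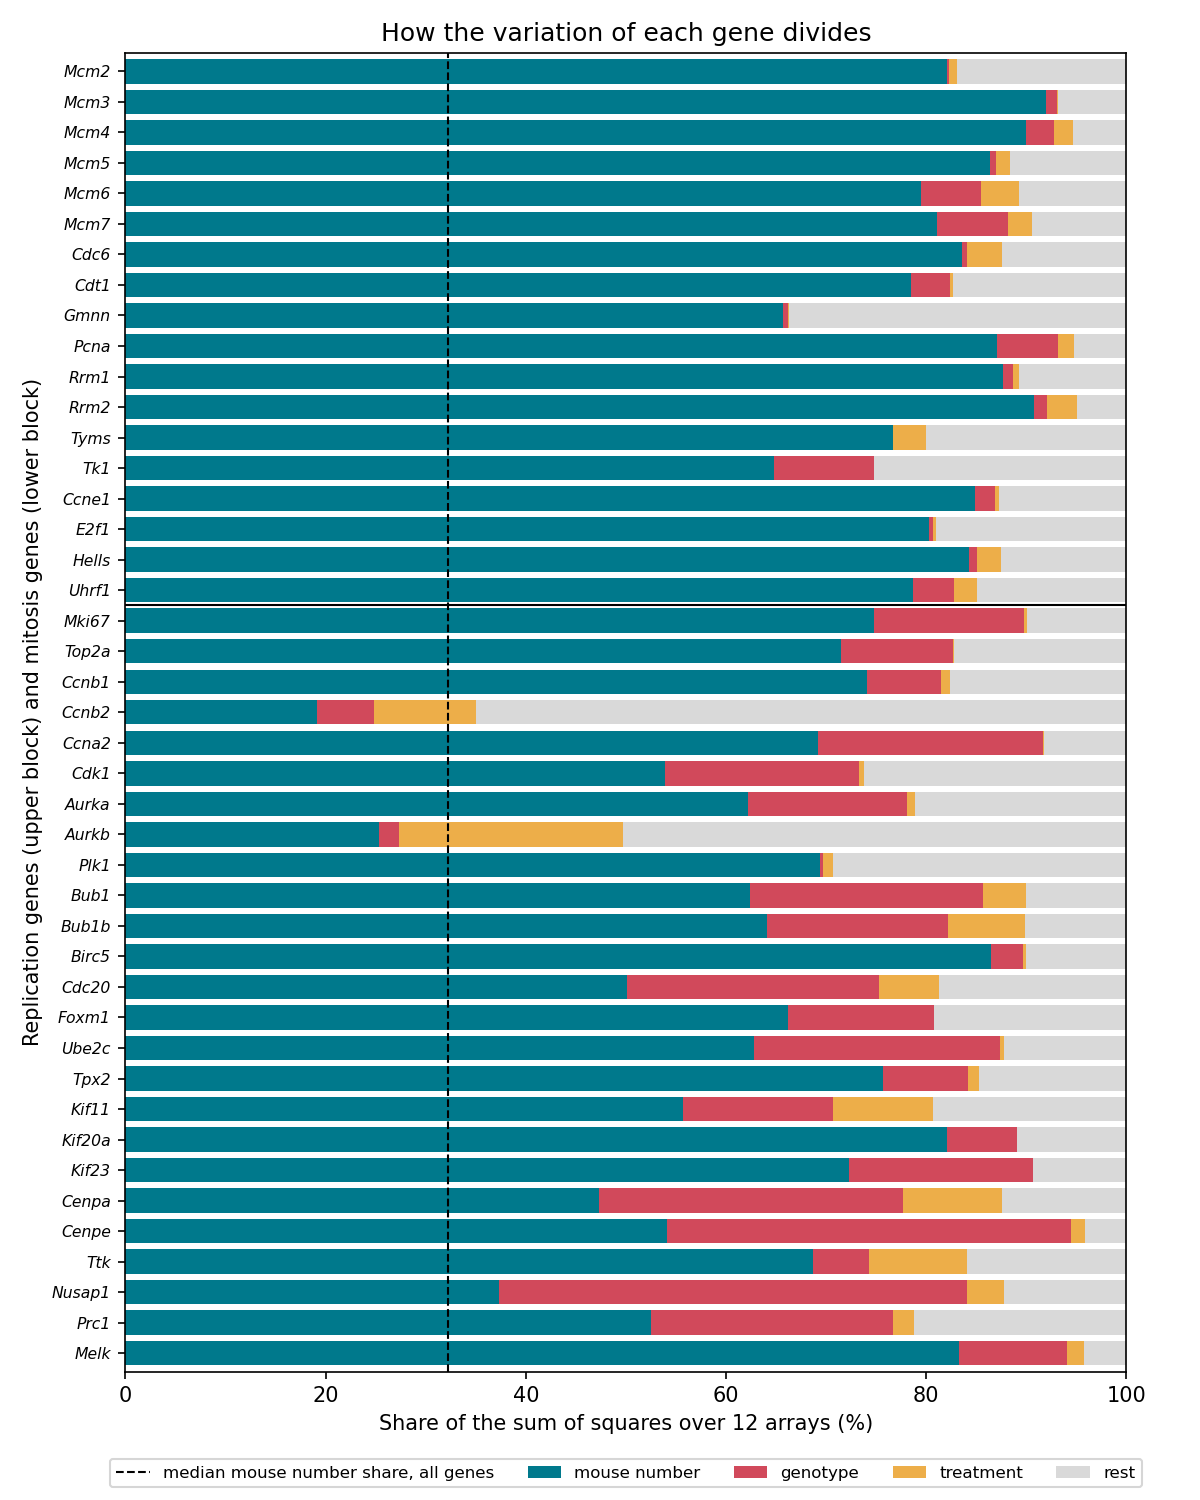
Share, in percent, of the sum of squares of each member over the 12 arrays that lay between mouse numbers, between genotypes and between treatments, with the rest in grey. The mouse number takes most of the bar in every replication gene, the genotype segment is wider in mitosis genes such as Nusap1 and Cenpe, and the dashed line marks the median number share of all genes, 32.2%.

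Averaged over the 4 arrays of a number, the replication genes were higher by a median of 0.76 in number 2 and 0.61 in number 3 than in number 1, and the mitosis genes by 0.41 and 0.49. The medians over all genes were 0.09 and 0.10. Each of the 43 genes was higher in numbers 2 and 3 than in number 1. For Ccnb2 the gap to number 2 rests on 1 low array of number 1, described below. In knockout vehicle and wild-type calcitriol number 1 was not its lowest. Rrm2 was higher by 0.98 and 0.91, Mcm3 by 0.91 and 0.78, Melk by 0.62 and 0.75 and Mki67 by 0.38 and 0.49. In a limma F test of the number on 1 value for each mouse, with genotype as a term and chosen after the data were seen, 16 of 18 replication genes and 12 of 25 mitosis genes passed, against 11.9% of all genes. The pattern was seen before it was tested. The lowest adjusted p was 0.00406, for Rrm2, and the 2 replication genes that did not pass were Tyms (0.0527) and Tk1 (0.109). On the vehicle arrays alone 16 replication and 8 mitosis genes passed, against 16.2% of all genes, and on the calcitriol arrays alone 1 of each passed, against 1% of all genes. With quantile normalization 22 members passed, against 9.54% of all genes, and with normexp 21, against 9.77%. After scaling to the median of each array none passed, against 4.98% of all genes, and the medians in numbers 2 and 3 over number 1 were 0.40 and 0.34 for replication and 0.05 and 0.23 for mitosis, where all genes had -0.27 and -0.16.

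**Figure D4:**
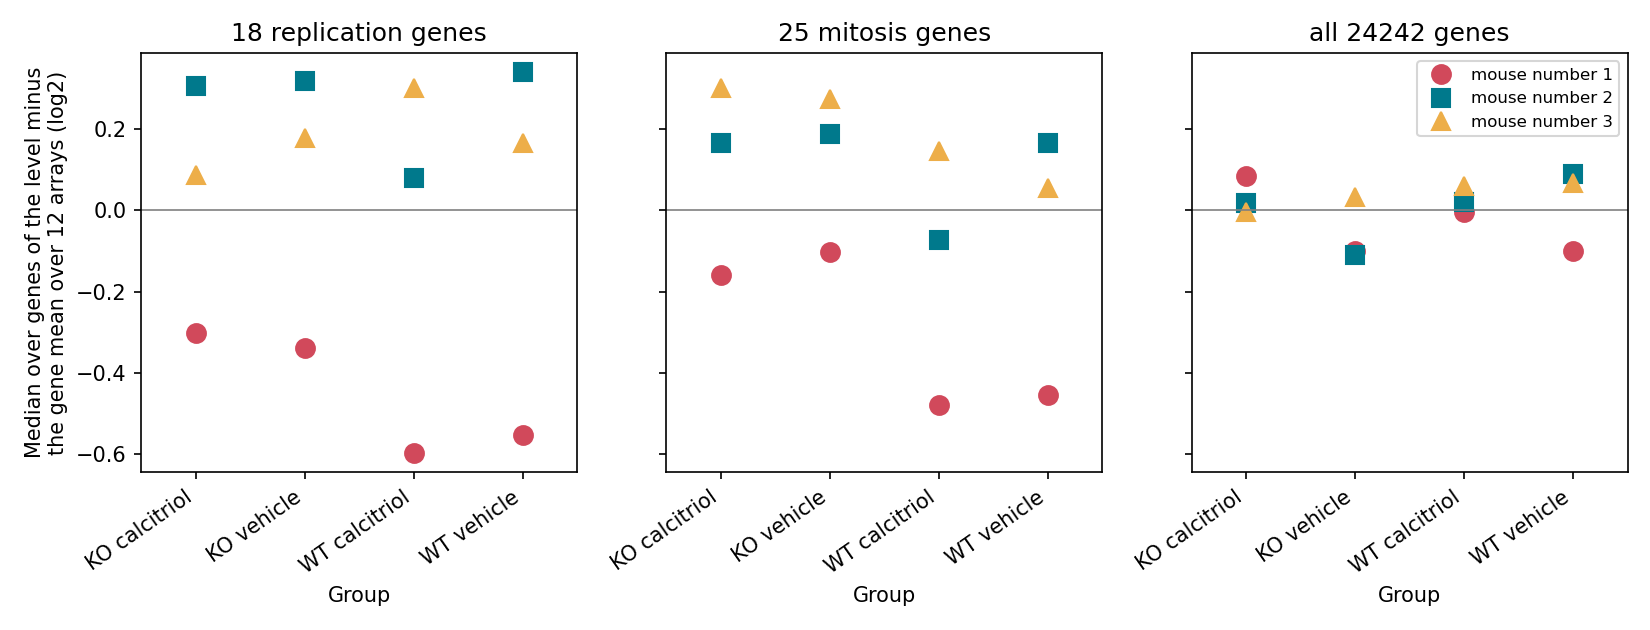
Median over the 18 replication genes, the 25 mitosis genes and all 24242 genes of the level minus the mean of the gene over the 12 arrays (log2), by group, with a symbol for each mouse number. Number 1 is the lowest symbol of every group in both sets, at -0.60 to -0.30 for replication and -0.48 to -0.10 for mitosis, while over all genes it is the lowest in the wild-type groups only.

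Several things go with the mouse number. In each genotype numbers 1 and 3 were 2 months old by the labels and had the same pattern of Ddx3y and Xist. As means over the 4 arrays of a number, each of the 43 genes was higher in number 3 than in number 1. For Ccnb2 this includes its low array. What part age or that pattern has in the levels was not tested. Number 2 was 3 months old by its label and had the opposite pattern of those 2 genes. For number 2 the mouse, its age and that pattern cannot be told apart. The sex labels of numbers 1 and 2 did not match the data, so their age labels may not hold either. The 4 arrays of number 1 lay on all 3 slides. Spots well above background made up 55.0% to 63.6% of its arrays, against 55.7% to 72.8% in number 2 and 58.5% to 66.4% in number 3. The colon epithelium markers had medians of -0.19 to -0.11 on the number 1 arrays and -0.08 to 0.13 on the others. Of these markers 3 of 15 passed the F test, against 11.9% of all genes. The crypt stem markers had medians of 0.01 and 0.05 on the knockout arrays of number 1 and -0.49 and -0.11 on its wild-type arrays, with 2 of 7 passing against that same 11.9%. Their part in the levels of the division genes was not tested.

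Replication and mitosis genes were compared as medians over each set, as a description. The median difference of the replication genes minus that of the mitosis genes was 0.01 for calcitriol in wild type, -0.00 for calcitriol in knockout and -0.05 for the difference of these effects. With slide as a block and no mouse term they were -0.0849, 0.15 and 0.19. On slide 3 alone the last 2 were 0.18 and 0.19. There the knockout calcitriol arrays are of mice 1 and 2 and the vehicle arrays of mouse 3, so slide and mouse cannot be told apart. For knockout against wild type, replication minus mitosis was -0.14 in calcitriol and -0.09 in vehicle. It was below 0 in each of the 32 alternatives run for either comparison, which reuse the same arrays and are not independent. In calcitriol the median differences of numbers 1, 2 and 3 were 0.24, 0.22 and -0.16 for replication and 0.28, 0.22 and 0.13 for mitosis. The gap there lay mainly in number 3. By array, replication minus mitosis lay at -0.14, 0.14 and -0.21 in knockout calcitriol, -0.24, 0.13 and -0.09 in knockout vehicle, -0.12, 0.15 and 0.16 in wild-type calcitriol and -0.10, 0.18 and 0.11 in wild-type vehicle. Number 1 was below 0 and number 2 above 0 in every group. Number 3 was below 0 in both knockout arrays and above 0 in both wild-type arrays.

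Ccnb2, the second B-type cyclin of mitosis, gave the largest value of any member, and it came from 1 spot. Its single probe lay at -0.96, 4.70 and 5.13 in knockout calcitriol, 5.002, 4.85 and 4.83 in knockout vehicle, 4.56, 4.54 and 4.80 in wild-type calcitriol and 4.69, 4.79 and 4.73 in wild-type vehicle. Mouse 1 in knockout calcitriol was alone far below the other 11 arrays, with a processed signal of 303.1 against 14939 to 22009, and the spot carried no outlier flag. Of the 24 spots within 2 rows and 2 columns of it, 7 were more than 2 below their own mean on the other 11 arrays, against 0 of 24 on each of those arrays and 0.243% of all spots of the same array. Without that array Ccnb2 differed by 0.03 for calcitriol in knockout, by 0.13 for the difference of the effects and by 0.29 for knockout against wild type in calcitriol, against -1.93, -1.83 and -1.67 with it. Ccnb1 showed no such drop on that array, at 3.28. The median fitted differences of the sets in the 5 comparisons moved by less than 0.01 when Ccnb2 and Aurkb were left out. That choice was made after the data were seen.

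Aurkb, the kinase that corrects spindle attachments, was measured by 1 dim probe. It lay at -2.71, -2.28 and -3.93 in knockout calcitriol, -5.58, -3.49 and -2.39 in knockout vehicle, -2.62, -2.49 and -2.24 in wild-type calcitriol and -5.13, -3.86 and -2.17 in wild-type vehicle. In mice 1 and 2 of both genotypes the calcitriol array was higher than the vehicle array, and in mouse 3 it was lower. The differences of 0.85 in knockout and 1.27 in wild type did not pass with all 3 mice, and with slide as a block they were 0.04 and 0.01. On slide 3 alone they were -0.11 and -0.28. These slide fits have no mouse term, and slide 3 holds vehicle from mouse 3 only. In mice 1 and 2 the calcitriol arrays were on slide 3 and the vehicle arrays were not. Birc5, which encodes a partner of the Aurkb protein and was bright on all arrays, differed by -0.02 in knockout and -0.04 in wild type.

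**Figure D5:**
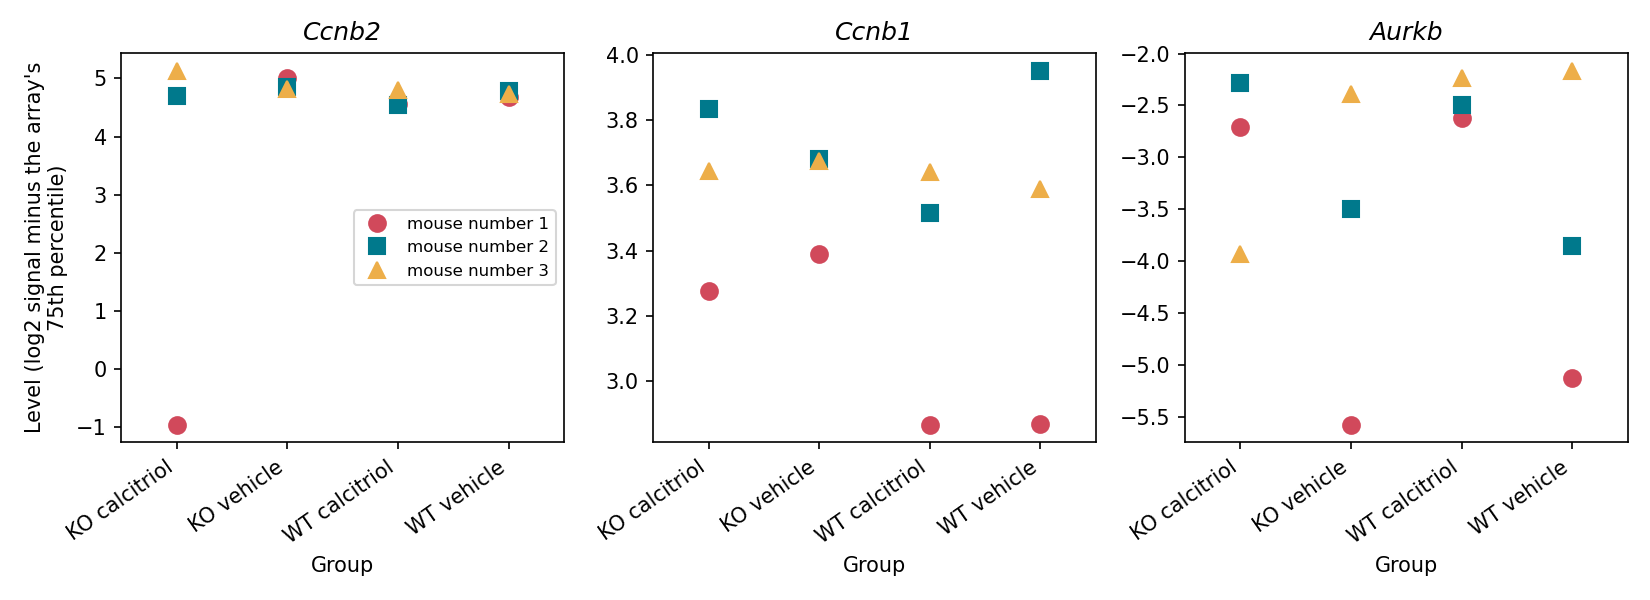
Level (log2 signal minus the 75th percentile of the array) of Ccnb2, Ccnb1 and Aurkb on each array, by group, with a symbol for each mouse number. Ccnb2 on the calcitriol array of knockout mouse 1 lies at -0.96 while its other 11 arrays lie between 4.54 and 5.13, Ccnb1 shows number 1 lowest in each group, and Aurkb spreads from -5.58 to -2.17.

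Of the members, 10 had several probes, and these served as a check within each gene. The 56 probes taken one by one gave no call in any comparison, with a lowest limma adjusted p of 0.588. On every 1 of the 56 probes the mean of number 1 was below those of numbers 2 and 3, for Ccnb2 with its low array included. For knockout against wild type, probes of 1 of the 10 genes disagreed in sign in calcitriol and those of 4 genes in vehicle. For calcitriol in knockout those of 8 genes did. Cdk1 showed the widest gap between probes: for calcitriol in wild type its brightest probe gave 0.11, against 1.35 and -0.50 for the dimmer pair. Both Mki67 probes gave a higher level in the knockout in vehicle, 0.15 and 0.31.

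The same tests were read for other genes of the pathway, listed by function. Of 49 other replication genes measured (origin recognition, GINS, polymerases, clamp loaders and others), 55 other mitosis genes (kinetochore, spindle, condensin and cytokinesis genes) and 17 genes of G1 control, none passed in either direction in any of the 5 comparisons, with or without the block (limma). Their lowest adjusted p was 0.147 with the block, for Anln in calcitriol. The other mitosis genes had a median of 0.18 for knockout against wild type in calcitriol, 53 of 55 above 0, and 0.20 in vehicle, 50 of 55 above 0. The other replication genes had 0.09, 35 of 49 above 0, and 0.10, 40 of 49 above 0. Both lists lay near the medians of the member sets. For the mouse number, 31 of 49 other replication genes, 21 of 55 other mitosis genes and 6 of 17 G1 genes passed the F test, against 11.9% of all genes. The cyclins, kinases and inhibitors of G1 did not share one direction: 9 of 17 were higher in number 2 than in number 1. In their promoters, a CHR match lay in 32 of 49 other mitosis genes and 9 of 40 other replication genes, and an E2F match in 7 of 49 and 16 of 40.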

How the data were processed

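The 12 arrays were read from the authors' deposited scanner tables. Per the file headers, Agilent Feature Extraction 11.5.1.1 gave a linear intensity for each spot. The processed intensity used here was background-corrected within its array and not normalized between arrays.

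Control and outlier spots were left out, the processed signal was taken to log2 and each array's 75th percentile was taken off. Spots of a probe were averaged. A probe was kept if all 3 arrays of some group had it well above background, and the brightest probe stood for each gene, which gave 24242 genes, 14904 of them named through accessions in a RefSeq table on GRCm38.p6. Of 55681 probes, 28026 had 1 gene symbol and 27655 none. All genes were tested with limma 3.58.1 (R 4.3.3) in a fit of 4 group means with a variance trend, adjusted by Benjamini-Hochberg at 0.05. Simulated arrays with planted changes served to check the size of the fitted differences. They held no slide effect and no effect shared by a mouse number, so they do not check the calls made here. The number of arrays limits the precision.

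Members and lists were chosen with earlier results of these data known. Values on each array are given for Mki67, Pcna, Top2a, Mcm2, Ccnb1 and Ccne1, for members that pass, and for the 3 replication and 3 mitosis members with the largest difference in each comparison. Vdr, S100g and Cyp24a1 serve as checks.

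Replicate numbers mark the mouse within a genotype, so calcitriol and vehicle arrays are paired. Deviations from the group means correlated at 0.25, 0.59 and 0.10 in knockout and 0.57, 0.32 and 0.32 in wild type, and between same-numbered mice of the genotypes at 0.13 to 0.64. The block was therefore read beside each test. Alternatives were other scalings, probe filters, probe choices, slide as a block and leaving out arrays. For normexp with an offset of 50, the raw median signal stood in for the planned mean signal.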

Additional observations from a re-analysis of the deposited data

How the results depend on the processing

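With the replicate block over all mice the count of members past the threshold was 0 in all 5 comparisons, as without it, and it changed no call. No member passed under any other scaling, filter, probe choice or slide setting, and in the genotype comparisons no adjusted p was below 0.129. Leaving out arrays or mice gave 0 members in the genotype comparisons and in the difference of effects, and 0 to 2 in the calcitriol comparisons. The 2 came without number 3 and with the block: Aurkb (1.94) and Kif11 (-0.57) in wild type, and Aurkb (2.04) and Kif11 (-0.43) in knockout. In that fit treatment and slide cannot be told apart.

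Scaling to the median moved all genes by 0.48, -0.26, -0.74 and 0.73 for calcitriol in wild type, calcitriol in knockout, the difference of effects and knockout against wild type in vehicle. The member medians became 0.44, -0.36, -0.79 and 0.95, which relative to all genes is -0.04, -0.10, -0.05 and 0.21. For calcitriol in knockout the median over members was -0.0299 with quantile normalization, -0.0277 with normexp, -0.12 after blocking on slide, -0.20 on the largest slide alone and -0.0206 with the replicate block without number 1. For knockout against wild type in vehicle it was 0.32 with slide as a block. Replication minus mitosis with slide as a block was -0.0849 for calcitriol in wild type, 0.15 in knockout, 0.19 for the difference of effects and -0.26 for the genotypes in vehicle. On the largest slide alone, with 1 vehicle array of each genotype, the last 3 were 0.18, 0.19 and -0.20. With the replicate block without number 3 it was 0.0636 for the difference of effects. The cause was not tested.

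Leaving out arrays gave member medians of -0.27 to 0.13 for calcitriol in wild type, -0.17 to 0.13 in knockout, -0.16 to 0.25 for the difference, -0.058 to 0.28 for the genotypes in vehicle and -0.0146 to 0.33 in calcitriol. Replication minus mitosis lay within -0.0817 to 0.08, -0.0746 to 0.06, -0.16 to 0.0749, -0.22 to -0.0254 and -0.26 to -0.0237 in the same order. The F test of the mouse number called 28 members, 2 on the calcitriol arrays alone and 0 after scaling to the median. For the 60 differences named by the rule, 1724 values were computed under alternatives, of which 197 had the other sign and 3 passed.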
